A study of Rattus norvegicus with 12 samples.

Results

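The genes described here are NRF2 and 8 genes tied to it in the bladder of ageing rats. They are Nfe2l2, which encodes NRF2, its inhibitor Keap1, and the target genes Nqo1, Hmox1, Gclc, Gclm, Slc7a11, Txnrd1 and Srxn1. Members were found by matching the RefSeq accession that the array files give for each probe to these 9 genes. The match gave 11 of the 30367 probes on the array, with 2 probes each for Slc7a11 and Txnrd1. The rats were males of the inbred strain Fischer 344, and total RNA of the bladder body of each of 12 animals was hybridised to its own Agilent 1-colour array. Old restricted rats (n = 4) were 25 to 28 months old and, since they were 6 weeks old, had received food on 3 days of each week, which the series' description puts at roughly 40% fewer calories than the old freely fed rats took. Old freely fed rats (n = 4) were of the same ages, and young freely fed rats (n = 4) were 6 months old, both with normal food at all times. There was no young restricted group, and 1 sex of 1 strain was studied.

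NRF2 is a transcription factor of the antioxidant response. In resting cells KEAP1 binds it and hands it to a CUL3 ubiquitin ligase for destruction, and oxidants or electrophiles that modify KEAP1 let NRF2 build up, pair with small MAF proteins and bind antioxidant response elements in its target genes. The control acts mainly on the NRF2 protein, which arrays do not measure. The targets make glutathione, reduce quinones and peroxides, break down heme and supply the cofactor NADPH, and in the bladder they are of interest because the urothelium faces urinary toxicants.

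The promoter windows of the members that passed the test are shown first, because NRF2 is known to act on its targets, and in mouse cells on its own gene, through elements with the core TGACNNNGC. The windows hold 250 bases before and 50 bases after the gene start, written 5′ to 3′ in the direction of the gene, from RefSeq on the GRCr8 assembly. All 3 lie on the minus strand, Nfe2l2 at chr3:81028950-81029249, Nqo1 at chr19:52220218-52220517 and Slc7a11 at chr2:136668215-136668514. Capitals mark a match to the core TGACNNNGC.
Nfe2l2: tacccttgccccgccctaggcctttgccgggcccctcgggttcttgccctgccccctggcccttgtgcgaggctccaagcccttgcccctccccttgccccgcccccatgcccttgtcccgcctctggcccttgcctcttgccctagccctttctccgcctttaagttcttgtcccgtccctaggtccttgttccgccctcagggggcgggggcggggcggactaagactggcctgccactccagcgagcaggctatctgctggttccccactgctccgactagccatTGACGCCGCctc
Nqo1: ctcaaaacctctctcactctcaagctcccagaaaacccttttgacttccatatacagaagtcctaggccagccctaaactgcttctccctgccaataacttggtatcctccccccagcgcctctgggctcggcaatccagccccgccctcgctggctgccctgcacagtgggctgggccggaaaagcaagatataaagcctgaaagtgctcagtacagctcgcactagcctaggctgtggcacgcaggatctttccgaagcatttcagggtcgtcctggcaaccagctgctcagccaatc
Slc7a11: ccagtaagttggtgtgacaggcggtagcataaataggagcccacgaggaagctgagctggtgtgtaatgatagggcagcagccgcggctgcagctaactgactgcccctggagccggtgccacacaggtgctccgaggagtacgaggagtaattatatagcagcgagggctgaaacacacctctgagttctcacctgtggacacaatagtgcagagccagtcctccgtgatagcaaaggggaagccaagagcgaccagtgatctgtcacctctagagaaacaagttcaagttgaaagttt
The window of Nfe2l2 held 1 match, TGACGCCGC, whose first base lies at +39 in the gene's direction, and those of Nqo1 and Slc7a11 held none. The core was searched on both strands. The source held 33469 windows of this length, of which 12.1% had a match. Windows of 8 members were in the table (all but Hmox1), 9 windows in all, and 3 held a match. The other two were an antisense match TGACTAAGC at -172 of Gclm and an antisense match TGACAAAGC at -78 in the second window of Txnrd1. None of the 3 shared a base with the AP-1 motif TGANTCA. These are letter matches in a short window and not measured binding sites.

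Levels are given as log2 of the processed signal minus log2 of the array's 75th percentile, so that 0 is the 75th percentile and 1 unit is a doubling. They compare a probe between animals, and different probes cannot be set against each other. A gene was called where limma's test gave a Benjamini-Hochberg adjusted p under 0.05 over all 20426 features tested. Of the members, 8 entered the test, each well above background on all 12 arrays. Gclm did not enter, because its probe was well above background on 0 of 12 arrays. The label of the tissue matched the arrays: uroplakin genes Upk1a, Upk1b and Upk3a, markers of the urothelium, had signals of 284000 to 349000 on all 12 arrays, and the 75th percentiles of the arrays were 3993 to 4892. The arrays of restricted rats lay on a slide and a scan of their own, so restriction and slide cannot be told apart. Old and young freely fed rats shared a slide, with young rats in array row 1 and old ones in row 2. Age and array row therefore cannot be told apart. Negative control spots had mean levels of -9.18 to -8.94 in young and -10.45 to -9.97 in old freely fed rats. In old restricted rats they were -9.81 to -9.54. Old freely fed replicate 2 stood apart in its macrophage markers, whose summed level was 6.78 against 5.62 to 5.88 in the other 3 rats of its group. In whole tissue, fewer cells of a type and less RNA per cell cannot be told apart.

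With age, NRF2's own gene was the 1 member that passed the test. Nfe2l2 rose 1.18-fold in old freely fed over young rats, and the other 7 tested members did not pass (Nqo1, Hmox1, Gclc, Slc7a11, Keap1, Txnrd1 and Srxn1). Among the members 1 of 8 was called, higher in old rats, beside 3.72% of all features called in either direction, 1.63% higher and 2.1% lower. The same gene was the 1 member whose groups did not overlap, beside 15.1% of features, or 5.69% with old rats above. At an unadjusted p under 0.05 there were 3 members, all higher (Nfe2l2, Nqo1 and Hmox1), beside 24.6% of features. The median log2 change of the 8 members was 0.14, and that of all features was -0.05.

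Between restricted and freely fed old rats no member passed the test. In limma's test 0 of 8 members passed, beside 3.64% of all features (1.62% higher and 2.02% lower), and 0 of 8 passed at an unadjusted p under 0.05, beside 20.6%. No member's groups were apart, beside 14.7% of features. The median log2 change of the members was 0.07 and that of all features 0.02. The members with the lowest adjusted p were Slc7a11, at 1.19-fold with a 95% interval of 0.996 to 1.42 (adjusted p = 0.253), and Keap1, at 1.08-fold with an interval of 0.990 to 1.17 (adjusted p = 0.303).

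Restricted old rats differed from young rats in 3 members. In this comparison age, diet, slide and scan differ together and cannot be told apart. Nqo1 was 1.46-fold, Slc7a11 1.36-fold and Nfe2l2 1.16-fold higher in restricted old rats, and none of the 8 was called lower. These 3 of 8 stand beside 9.17% of features called in either direction, 3.19% higher and 5.99% lower. The same 3 members passed at an unadjusted p under 0.05, beside 26.1% of features, and had groups that did not overlap, beside 18% of features, or 7.16% with restricted rats above. All 8 tested members had a log2 change above 0, with a median of 0.17 against -0.01 over all features, although Txnrd1, the smallest at 0.01, turned below 0 with another background correction and in 4 of 12 fits without 1 rat. The comparisons share groups, so their results are not independent of each other.

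**Figure D1:**
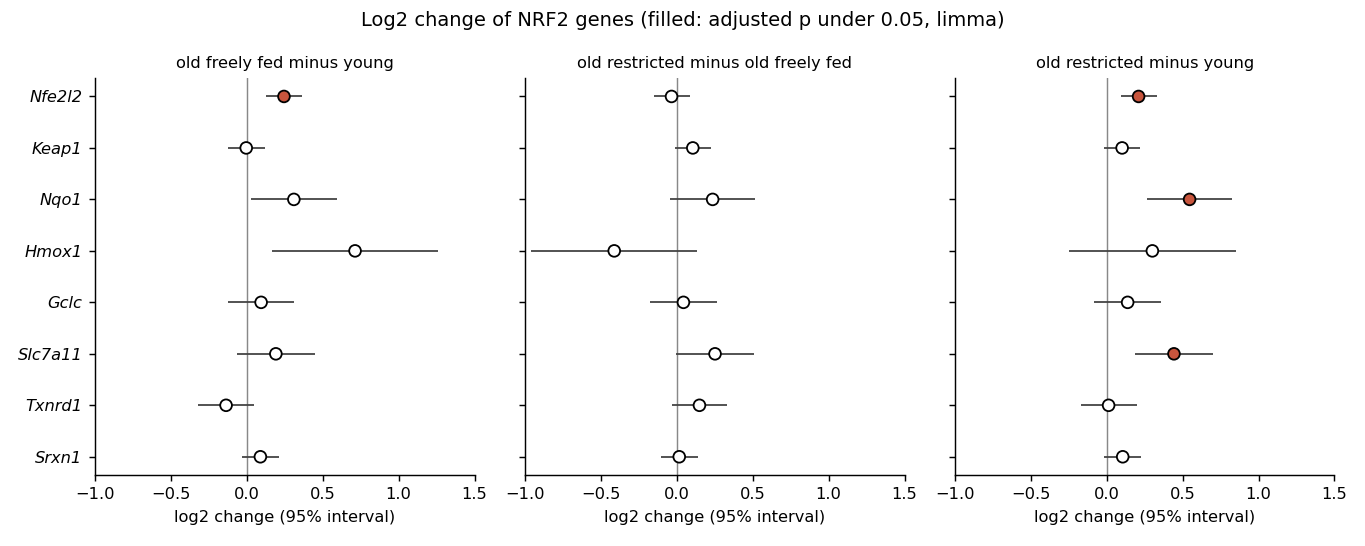
Log2 change of the 8 tested members (x axis, with 95% intervals) in the 3 comparisons, filled where the adjusted p was under 0.05. Nfe2l2 is filled for age, no member for restriction, and Nfe2l2, Nqo1 and Slc7a11 for old restricted against young rats.

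Nfe2l2 (probe A_64_P060598) had levels of 2.75, 2.53, 2.70 and 2.62 in the 4 old restricted rats, 2.63, 2.61, 2.73 and 2.77 in the 4 old freely fed rats, and 2.44, 2.41, 2.51 and 2.40 in the 4 young rats. Every old rat of either diet lay above every young rat, and the old groups overlapped. The means were 2.65 ± 0.09, 2.68 ± 0.08 and 2.44 ± 0.05 in old restricted, old freely fed and young rats (SD, n = 4 each). The change with age was 0.24 on the log2 scale (SE 0.05), 1.18-fold with a 95% interval of 1.09 to 1.29 (limma, adjusted p = 0.0375). Old restricted rats were 1.16-fold above young rats, with an interval of 1.07 to 1.26 (adjusted p = 0.036). Between the old groups the ratio of restricted to freely fed rats was 0.976, with an interval of 0.899 to 1.06 (adjusted p = 0.754). The call with age was lost without old freely fed replicate 3 or 4, without any 1 of the 4 young rats and without old restricted replicate 4, at log2 changes of 0.22 to 0.27. The call of restricted against young rats was lost without old restricted replicate 1, 3 or 4 and without young replicate 1, 2 or 4, at 0.18 to 0.22.

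Keap1 encodes the adaptor that keeps NRF2 low. Its levels were -1.10, -1.09, -1.05 and -1.24 in old restricted rats, -1.29, -1.11, -1.20 and -1.30 in old freely fed rats, and -1.21, -1.28, -1.19 and -1.21 in young rats. The ranges of all 3 groups overlapped. The log2 change was -0.00 with age (SE 0.06, adjusted p = 0.968, limma), with a fold interval of 0.917 to 1.08, and its sign turned under quantile scaling, median centring and another background correction. It was 0.11 for restricted against freely fed old rats (adjusted p = 0.303) and 0.10 for restricted against young rats (adjusted p = 0.269).

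**Figure D2:**
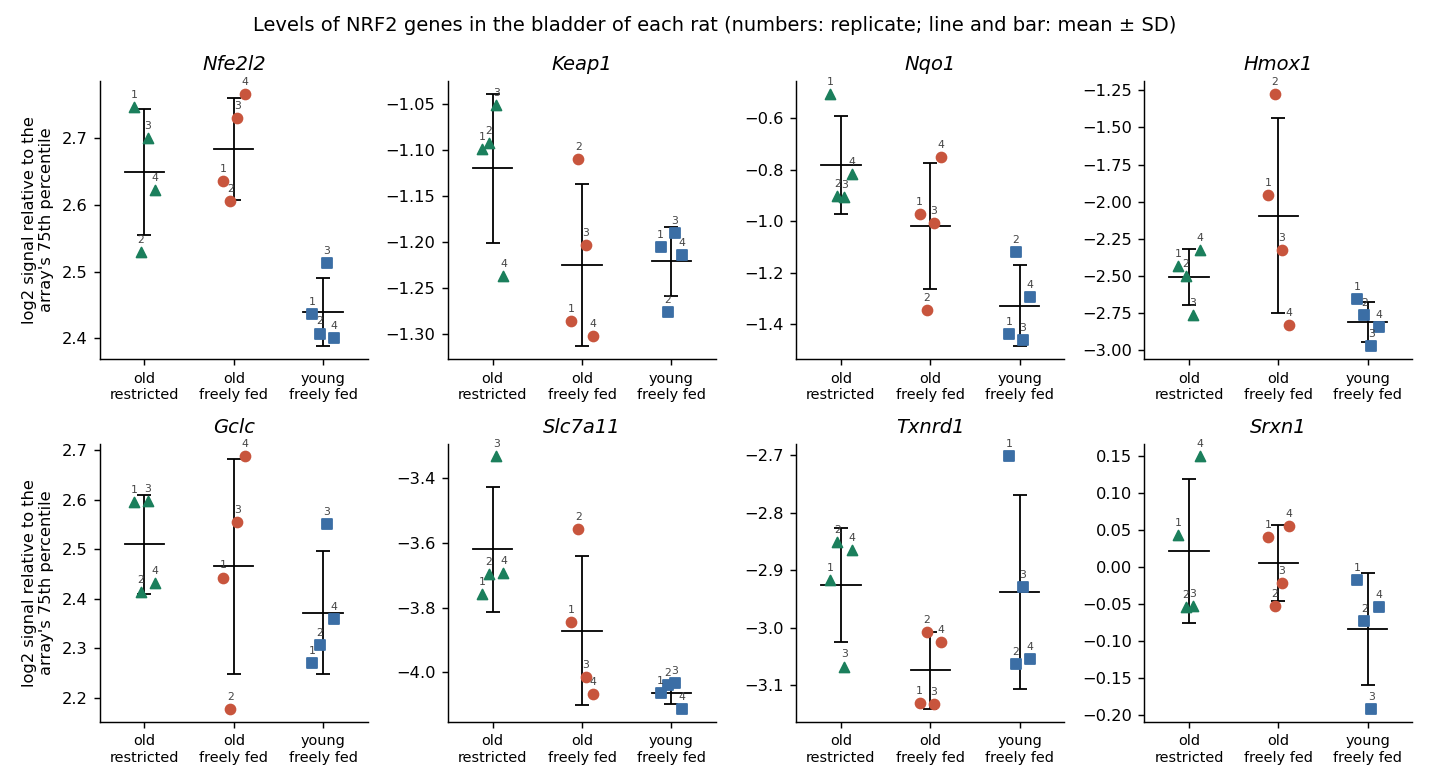
Level of each tested member in each rat (y axis, log2 signal relative to the array's 75th percentile) by group, with the replicate number at each point and the mean ± SD of 4 rats as line and bar. Nfe2l2, Nqo1 and Slc7a11 have all 4 old restricted rats above all 4 young rats, and Hmox1 spreads from -2.83 to -1.27 in old freely fed rats.

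Of the quinone and heme enzymes, Nqo1, which reduces quinones in a single step that avoids radical intermediates, was highest in restricted rats. Nqo1 (probe A_64_P005208) had levels of -0.51, -0.90, -0.91 and -0.82 in old restricted rats, -0.97, -1.35, -1.01 and -0.75 in old freely fed rats, and -1.44, -1.12, -1.46 and -1.29 in young rats. All restricted rats lay above all young rats, while the old freely fed rats overlapped with both. The group means were -0.78 ± 0.19 in old restricted, -1.02 ± 0.25 in old freely fed and -1.33 ± 0.16 in young rats (SD, n = 4 each). Restricted against young rats gave 0.55 on the log2 scale (SE 0.13), 1.46-fold with an interval of 1.20 to 1.77 (limma, adjusted p = 0.0257). This call was lost without young replicate 1 or 3 or without old restricted replicate 1, with log2 changes of 0.45 to 0.51. The neighbouring steps did not pass: 1.24-fold with age, with an interval of 1.02 to 1.51 (adjusted p = 0.163), and 1.18-fold for restricted against freely fed old rats, with an interval of 0.970 to 1.43 (adjusted p = 0.322).

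Hmox1 encodes heme oxygenase 1, which cleaves heme and is abundant in macrophages that clear red blood cells. Its levels were -2.43, -2.50, -2.76 and -2.33 in old restricted rats, -1.95, -1.27, -2.32 and -2.83 in old freely fed rats, and -2.65, -2.76, -2.97 and -2.84 in young rats. The old freely fed rats had an SD of 0.65, against 0.19 in old restricted and 0.14 in young rats, and their lowest animal lay within the young range. The change with age was 1.64-fold, with an interval of 1.12 to 2.40 (limma, adjusted p = 0.114). Without old freely fed replicate 4 it was 1.94-fold and passed (adjusted p = 0.0369), and without replicate 2 of that group it was 1.36-fold (adjusted p = 0.214). Restricted against freely fed old rats gave a log2 change of -0.41 (adjusted p = 0.378), which was -0.14 without old freely fed replicate 2 and -0.66 without replicate 4. Restricted against young rats gave 0.30 (adjusted p = 0.48).

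In the old freely fed rats the order of Hmox1 was that of the macrophage markers. From the highest to the lowest the order was replicate 2, 1, 3 and 4 for Hmox1, for the cystine carrier Slc7a11 and for the summed macrophage level, which was 6.78, 5.88, 5.66 and 5.62. Gclc and Nfe2l2 ran the other way, with replicate 4 highest and replicate 2 lowest. The other groups did not share one order. In old restricted rats replicate 3 had the highest summed macrophage level, but the lowest Hmox1 (-2.76) and the highest Slc7a11 and Gclc. In young rats replicate 3 was lowest in the summed macrophage level and in Hmox1 (-2.97), and highest in Slc7a11 and Gclc. The summed macrophage level was 5.35 to 5.75 in old restricted rats, 5.62 to 6.78 in old freely fed rats and 5.22 to 5.53 in young rats. With age 11 of the 11 tested macrophage markers had a log2 change above 0, and 0 were called (4 at an unadjusted p under 0.05), while Marco, the twelfth, did not enter the test. None of the tested ones was absent: C1qa, C1qb and Lyz2 had signals of at least 25500 on all 12 arrays. The sum follows mostly these genes, with highest signals of 84600, 212000 and 175000. The next brightest, C1qc, reached 19500. The markers' part in these results was not tested.

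**Figure D3:**
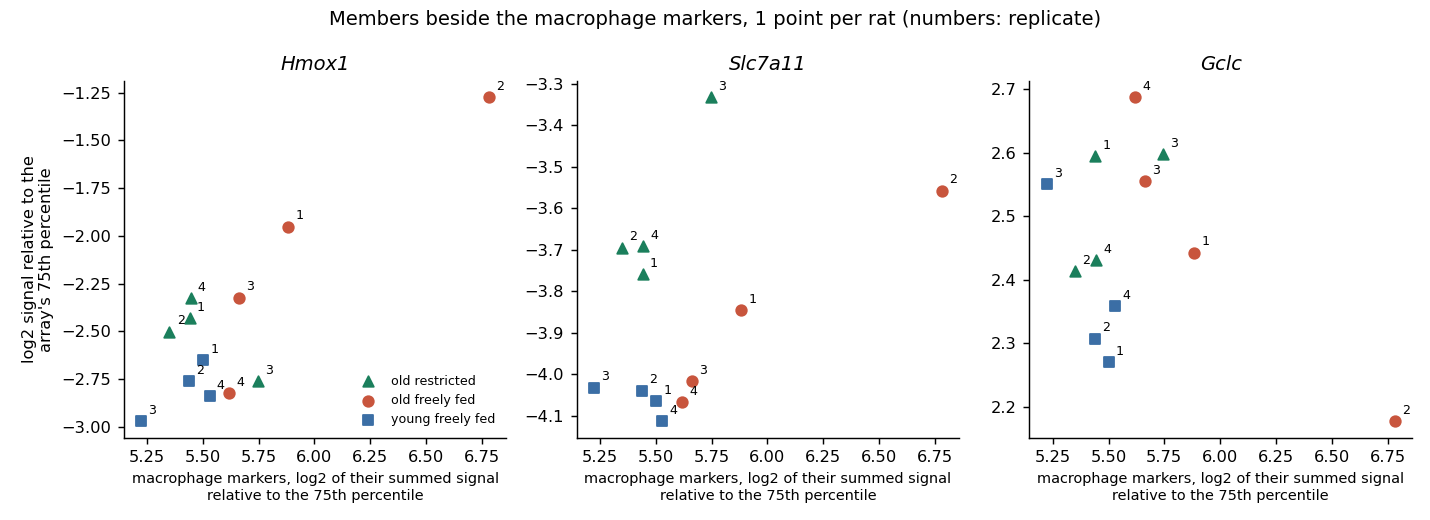
Levels of Hmox1, Slc7a11 and Gclc (y axes, log2 signal relative to the array's 75th percentile) against the summed level of the macrophage markers (x axis, same scale), 1 point per rat with its replicate number. Old freely fed replicate 2 lies farthest right at 6.78, where it is the highest of its group in Hmox1 and Slc7a11 and the lowest in Gclc.

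For glutathione, the cell's main thiol, the cystine carrier Slc7a11 was the member that differed, while the synthesis enzyme Gclc did not pass in any comparison. Slc7a11 exchanges glutamate for cystine, the precursor of the cysteine in glutathione. Its brighter probe (A_42_P576446) had levels of -3.76, -3.69, -3.33 and -3.69 in old restricted rats, -3.85, -3.56, -4.02 and -4.07 in old freely fed rats, and -4.06, -4.04, -4.03 and -4.11 in young rats. The young rats were close together, with an SD of 0.04, and every restricted rat lay above them. Restricted against young rats gave 0.44 on the log2 scale (SE 0.12), 1.36-fold with an interval of 1.14 to 1.63 (limma, adjusted p = 0.0397). That call held without old freely fed replicate 2, 3 or 4 and was lost without any 1 of the other 9 rats, at an adjusted p of 0.0503 to 0.101. The largest of these came without old restricted replicate 3, at a log2 change of 0.35. With age the change was 1.14-fold (interval 0.955 to 1.37, adjusted p = 0.339), and the log2 value of 0.19 became 0.09 without old freely fed replicate 2. The second probe of Slc7a11 was well above background on 1 of 12 arrays and did not enter the test.

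Gclc encodes the catalytic subunit of glutamate-cysteine ligase, the first enzyme of glutathione synthesis. Its levels were 2.59, 2.41, 2.60 and 2.43 in old restricted rats, 2.44, 2.18, 2.56 and 2.69 in old freely fed rats, and 2.27, 2.31, 2.55 and 2.36 in young rats. The 3 groups overlapped, with the widest spread in the old freely fed rats. The fold was 1.07 with age (interval 0.917 to 1.24, adjusted p = 0.588, limma), 1.03 for restricted against freely fed old rats (interval 0.886 to 1.20, adjusted p = 0.839) and 1.10 for restricted against young rats (interval 0.945 to 1.28, adjusted p = 0.415). Gclm, the modifier subunit of the same enzyme, was not well above background in any rat, so its probe gave no usable level here. Its signals averaged 13.8, 8.27 and 7.24 in old restricted, old freely fed and young rats. The first average rests on old restricted replicate 2, at 36.6, while replicates 1, 3 and 4 had 4.80, 7.53 and 6.33.

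Of the members that act on thioredoxin and peroxiredoxins, neither Txnrd1 nor Srxn1 passed in any comparison. Txnrd1 encodes the reductase that recharges thioredoxin with NADPH. Its brighter probe had levels of -2.92, -2.85, -3.07 and -2.87 in old restricted rats, -3.13, -3.01, -3.13 and -3.03 in old freely fed rats, and -2.70, -3.06, -2.93 and -3.05 in young rats. The 3 groups overlapped, and young replicate 1 was the highest of all 12 rats. The log2 change was -0.14 with age (interval -0.32 to 0.05, adjusted p = 0.338, limma), 0.15 for restricted against freely fed old rats (adjusted p = 0.34) and 0.01 for restricted against young rats (adjusted p = 0.942). The second Txnrd1 probe, dimmer but well above background in every rat, gave 0.01, 0.10 and 0.11 for the same comparisons. The probes thus differed in sign with age, and neither passed.

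Srxn1 encodes sulfiredoxin, which restores overoxidised peroxiredoxins. Its levels were 0.04, -0.05, -0.05 and 0.15 in old restricted rats, 0.04, -0.05, -0.02 and 0.05 in old freely fed rats, and -0.02, -0.07, -0.19 and -0.05 in young rats. The groups overlapped throughout. The fold was 1.06 with age (interval 0.978 to 1.16, adjusted p = 0.344, limma), 1.01 for restricted against freely fed old rats (interval 0.929 to 1.10, adjusted p = 0.899) and 1.08 for restricted against young rats (interval 0.989 to 1.17, adjusted p = 0.255).

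Transcripts of the proteins that pair with NRF2 or set its stability mostly did not pass the threshold. Of a list of 17 such genes 15 were tested (Nfe2 and Nfe2l3 were not). With age 0 of 15 were called (limma), beside 3.72% of all features, and 2 passed at an unadjusted p under 0.05, beside 24.6%. Restriction gave 1 higher and 0 lower of 15, beside 3.64% of all features: Mafg, a small MAF protein that forms dimers with NRF2, rose 1.23-fold over freely fed old rats, with an interval of 1.12 to 1.35 (adjusted p = 0.0262). The levels of Mafg were -0.08, 0.09, 0.15 and 0.10 in old restricted rats, -0.27, -0.30, -0.15 and -0.21 in old freely fed rats, and -0.15, -0.16, -0.28 and -0.04 in young rats. All restricted rats thus lay above all freely fed old rats, and 1 of them lay within the young range. Against young rats, restricted rats had 2 genes higher and 1 lower of 15, beside 9.17% of all features. Sesn2, a stress-induced sestrin linked to KEAP1 turnover, rose 1.31-fold (adjusted p = 0.0381), Mafg rose 1.17-fold (adjusted p = 0.0482), and Nfe2l1, the NRF2 relative that controls proteasome genes, fell by 0.26 on the log2 scale (adjusted p = 0.0337). Leaving out 1 rat kept Mafg under restriction in 7 of 12 fits, and Sesn2, Mafg and Nfe2l1 against young rats in 5, 3 and 6 of 12. The median of the list was -0.02 with age, 0.08 with restriction and 0.05 for restricted against young rats, against -0.05, 0.02 and -0.01 over all features.

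Other NRF2 targets, on a list of 42 genes of which 41 were tested, moved in both directions with age. Old freely fed rats had 4 higher and 1 lower than young rats, 5 of 41 called beside 3.72% of all features. Akr1b8, an aldo-keto reductase of reactive aldehydes, rose 1.31-fold, with an interval of 1.19 to 1.44 (adjusted p = 0.0134). Its levels were 1.41, 1.29, 1.53 and 1.42 in old restricted rats, 1.35, 1.35, 1.42 and 1.34 in old freely fed rats, and 0.90, 1.13, 0.98 and 0.90 in young rats. Every old rat was above every young rat. The iron exporter Slc40a1 rose 1.55-fold (adjusted p = 0.0236), the aldehyde oxidase Aox1 1.28-fold (adjusted p = 0.0245) and the epithelial glutathione peroxidase Gpx2 1.47-fold (adjusted p = 0.0443). The ABC transporter Abcb6 fell by 0.20 on the log2 scale (adjusted p = 0.0388). In fits without 1 rat, Akr1b8 passed in 12 of 12, Slc40a1 in 11, Aox1 in 8, Abcb6 in 2 and Gpx2 in 1.

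With restriction 3 of these 41 targets were higher and 1 lower than in freely fed old rats, beside 3.64% of all features. Ephx1, the microsomal epoxide hydrolase, rose 1.37-fold, with an interval of 1.19 to 1.57 (limma, adjusted p = 0.0212). Its levels were -0.37, -0.32, -0.20 and -0.29 in old restricted rats, -0.78, -0.88, -0.66 and -0.66 in old freely fed rats, and -0.92, -0.65, -0.48 and -0.51 in young rats. All restricted rats were above all rats of the other groups. Transketolase Tkt, of the pentose phosphate pathway, rose 1.23-fold (adjusted p = 0.0375), and the glutathione transferase Gsta3 rose 1.20-fold (adjusted p = 0.0446). Slc40a1 fell by 0.54 (adjusted p = 0.0296), with means of -1.52 ± 0.18 in old restricted, -0.98 ± 0.20 in old freely fed and -1.61 ± 0.16 in young rats (SD, n = 4 each). Slc40a1 is also strongly expressed in iron-recycling macrophages, whose markers had 10 of 11 log2 changes below 0 with restriction, 0 called and 3 at an unadjusted p under 0.05. Their median log2 change was -0.24, against 0.02 over all features. The part of macrophages in the fall of Slc40a1 was not tested. In fits without 1 rat, Ephx1 and Slc40a1 passed in 7 of 12, Tkt in 5 and Gsta3 in 3.

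In restricted old rats 9 of these 41 targets were higher and 2 lower than in young rats, beside 9.17% of all features. The list's median log2 change was 0.11, against -0.01 over all features, and it was 0.03 in both other comparisons. The glutathione group held 3 of the rises, Gstm1 at 1.25-fold (adjusted p = 0.0302), Gsta3 at 1.19-fold (adjusted p = 0.0335) and the membrane transferase Mgst1 at 1.24-fold (adjusted p = 0.0361). In detoxification and export Akr1b8 rose 1.36-fold (adjusted p = 0.00266), the iron-containing protein pirin, Pir, 1.17-fold (adjusted p = 0.0198), the export pump Abcc3 1.20-fold (adjusted p = 0.0282) and Ephx1 1.27-fold (adjusted p = 0.0371). The peroxiredoxin Prdx6 rose 1.18-fold (adjusted p = 0.0238) and the NADPH-making enzyme Idh1 1.20-fold (adjusted p = 0.0167). Of the iron and heme genes, the ferritin heavy chain Fth1 fell by 0.17 (adjusted p = 0.0301) and Abcb6 by 0.16 (adjusted p = 0.0452). The 11 calls of this list were 3 to 11 in fits without 1 rat. Akr1b8 and Idh1 passed in 12 of those 12 fits, Pir in 11, Prdx6 and Gstm1 in 8, Abcc3 and Gsta3 in 7, Ephx1, Mgst1 and Fth1 in 6 and Abcb6 in 2. Fth1 came to a log2 change of -0.05 (adjusted p = 0.537) with background correction and quantile scaling together. Probes of Gsta3, Gstm1, Akr1b8 and Fth1 belong to families or copies of similar sequence, and cross-hybridisation was not tested. A second probe of Gsta3 did not pass in either comparison. Second probes of other called genes did not pass either (limma). They were Fth1 in restricted against young rats (adjusted p = 0.0736), Abcb6 in that comparison (0.0999) and with age (0.0724), and Gpx2 with age (0.0615).

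**Figure D4:**
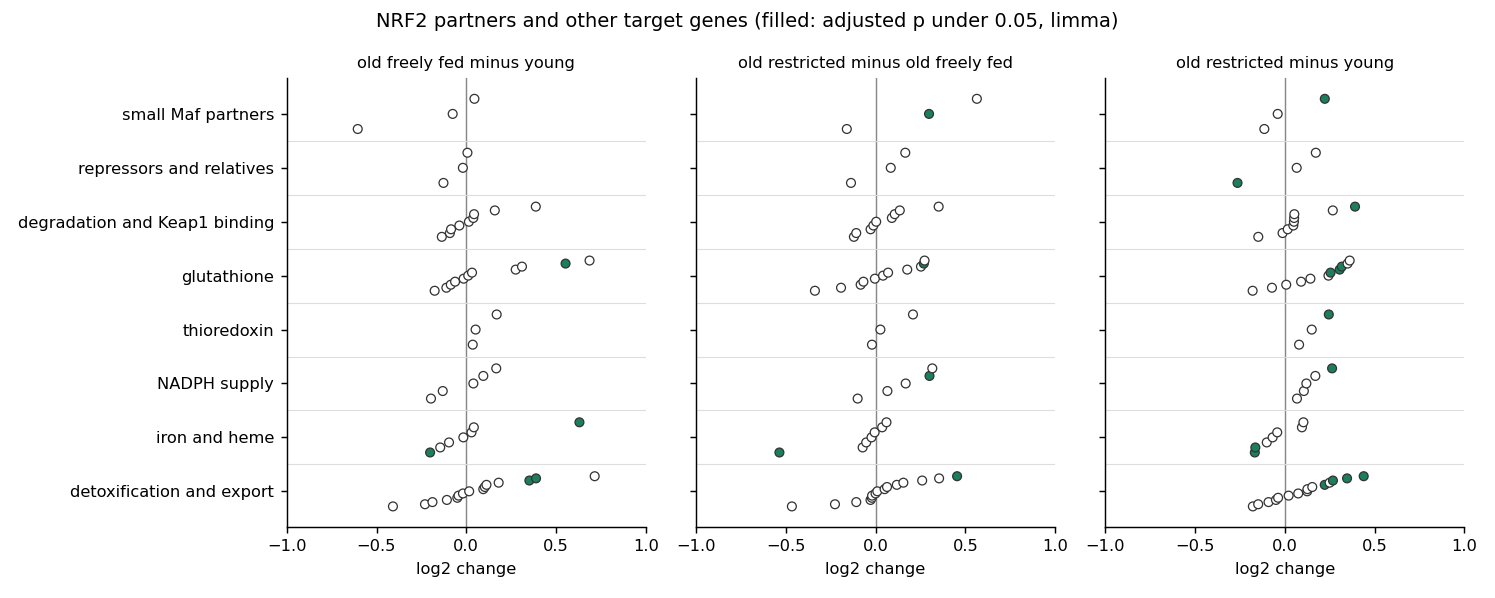
Log2 change (x axis) of each tested NRF2 partner and other target gene by role (y axis) in the 3 comparisons, filled where the adjusted p was under 0.05. Filled points number 5 with age, 5 with restriction and 14 in old restricted against young rats.

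Markers of several cell types also differed between the groups in which members were called. Of the T cell markers 8 of 8 had a log2 change above 0 with age and 4 were called, of which Cd2 (2.31-fold) and Cd3d (1.84-fold) had the lowest adjusted p. With restriction 8 of 8 were below 0, 6 at an unadjusted p under 0.05 (limma), and the 1 called, Cd3d, fell by 0.71 on the log2 scale. Their summed level was 0.41 to 0.69 in old restricted, 0.81 to 0.99 in old freely fed and 0.07 to 0.44 in young rats. Krt5, the keratin of the basal urothelium, rose 1.58-fold with age (adjusted p = 0.0361) and 2.01-fold in restricted old over young rats (adjusted p = 0.0032). That second comparison is the one that called Nqo1 and Slc7a11. In it Tp63, a transcription factor of the same basal cells, fell, with means of 2.32 ± 0.10 in old restricted and 2.64 ± 0.18 in young rats (SD, n = 4 each; adjusted p = 0.0386, limma). Krt5 and Tp63 were the 2 of 13 urothelial markers called there, and with age Krt5 was the 1 called while 10 of 13 had a log2 change below 0. The summed urothelial level was 8.45 to 8.50 in old restricted, 8.21 to 8.41 in old freely fed and 8.42 to 8.56 in young rats, with all 13 tested markers detected. Smooth muscle markers summed to 8.34 to 8.58 in old restricted, 8.04 to 8.59 in old freely fed and 8.67 to 8.75 in young rats, and 8 of 8 had a log2 change below 0 with age, 7 at an unadjusted p under 0.05 and 1 called (Myh11). In restricted old against young rats 2 of 8 were called lower, Des and Lmod1. The smooth muscle sums include Tagln, with signals of 1210 to 373000 and well above background on 11 arrays. Fibroblast markers had 8 of 8 log2 changes below 0 with age, 7 at an unadjusted p under 0.05 and 3 called, among them Pdgfrl and Col1a2. For restricted old against young rats 6 of 8 were below 0, and the 2 called were Pdgfrl and Cd34. Red blood cell markers summed to 5.52 to 6.10 in old restricted, 5.96 to 7.41 in old freely fed and 6.02 to 7.01 in young rats, and 0 of 4 were called. With restriction 3 of the 4 were lower at an unadjusted p under 0.05 (limma), with a median log2 change of -1.06. Endothelial markers summed to 2.10 to 2.31 in old restricted, 2.38 to 2.59 in old freely fed and 2.23 to 2.45 in young rats, with Pecam1 lower under restriction by 0.36 on the log2 scale and Cdh5 lower in restricted old than in young rats by 0.35. Adipocyte markers summed to 2.44 to 2.62 in old restricted, 2.88 to 2.92 in old freely fed and 2.27 to 2.90 in young rats, with 0 of 3 called in any comparison. With restriction 3 of 3 were lower at an unadjusted p under 0.05 (limma), with a median log2 change of -2.285. The sum follows mostly Fabp4, with signals of 20100 to 31300, against at most 5590 for Adipoq and 217 for Cidec. Markers of the prostate and seminal vesicle, glands next to the bladder, summed to -3.99 to -3.75 in old restricted, -4.47 to -3.64 in old freely fed and -3.22 to -1.32 in young rats, and Andpro was the 1 of 3 called lower in both old groups against young rats. Andpro was well above background on only 5 arrays, with signals of 3.6 to 1450. Its calls thus include old rats whose levels were not well above background, and the size of its fall cannot be read. With 5 arrays well above background, just 1 group can have met the filter, so the calls are no independent support for a fall. Of the 7 gland markers on the array 3 were tested, while Pbsn, Svs4, Svs5 and Spink1 were not. The part of the marker differences in the members' changes was not tested.

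The features most like each called member over the 12 rats are given as a description, from 11123 features with a symbol that were detected on all arrays. For Nfe2l2 they were Rnf113a2 (r = 0.933), Gcnt1 (0.895), Enpep (0.888), Abcg5 (0.885) and Trmt44 (0.883). For Nqo1 they were Aqp3 (r = 0.901), Alg11 (0.897), Ndufa7 (0.888), Icmt (0.886) and Srp14 (0.88). For Slc7a11 they were Abcc3 (r = 0.939), the export pump named above, then Ctla2a (0.927), Pigs (0.914), Mms22l (0.892) and Adgrg6 (0.892). These Pearson values include the differences between the groups, and were the highest of many. Among the members, Nfe2l2 and Gclc had r = 0.699 over the 12 rats and 0.828 after the group means were removed. Nfe2l2 and Nqo1 had 0.714 and 0.468, and Hmox1 and Gclc had -0.479 and -0.895. Nqo1 and Slc7a11, both called in restricted against young rats, had 0.325 and -0.693. Nfe2l2 and Slc7a11 had 0.394 and -0.277, and Nfe2l2 and Hmox1 had 0.246 and -0.606. The pairs named are a selection that includes the highest and the lowest value after the group means were removed. All share the array, and with it its scaling.

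**Figure D5:**
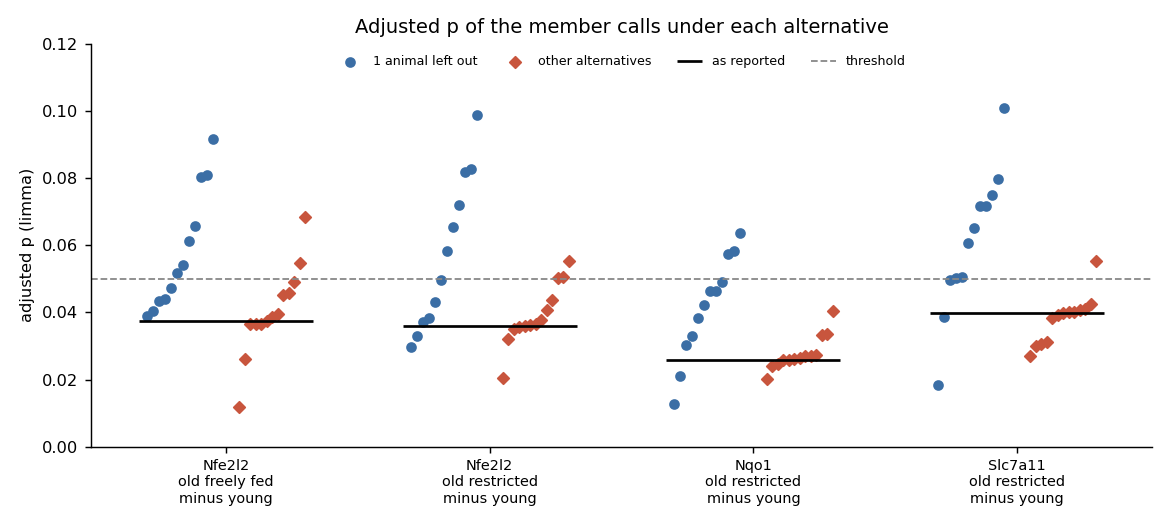
Adjusted p (y axis) of the 4 member calls as reported (black line), with 1 rat left out (circles, 12 each) and under the other 13 alternatives (diamonds), with the threshold as a dashed line. From left to right, Nfe2l2 with age passed in 5 of 12 fits without 1 rat and 11 of 13 other alternatives. In restricted against young rats Nfe2l2 passed in 6 and 10, Nqo1 in 9 and 13, and Slc7a11 in 3 and 12.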

How the data were processed

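Bladder RNA of 12 rats was labelled with Cy3 and hybridised to 1-colour Agilent arrays, per the labels' protocols. The authors deposited spot intensities on a linear scale from Agilent Feature Extraction 10.7 (per the submitters' processing notes), with the local background subtracted per the file headers and arrays not scaled to each other. The design is 028279, annotated on rn4, per the file headers. The deposited series table equalled the scanner files' processed signal in 100% of spots (relative tolerance 1e-06).

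From these, log2 of the processed signal minus log2 of each array's 75th percentile over 58717 non-control spots was computed in R 4.3.3 with limma 3.58.1. No spot was saturated (0), and outlier spots were left out except in 91 averages that had no other spot. Well-above-background probes numbered 22567 to 23200 on arrays of old restricted, 23373 to 24644 on those of old freely fed and 21660 to 22294 on those of young rats; the number of arrays limits the precision. A probe was kept if it was well above background in all 4 rats of any group (23090 probes), and the brightest probe stood for a gene, giving 20426 features, 12037 with a symbol. RefSeq accessions matched to a GRCr8 table named 59.3% of probes. One model over all 12 arrays gave the 3 comparisons (lmFit, eBayes with a brightness trend, two-sided, threshold 0.05). Each sample is 1 animal, so p-values set group differences against the spread between animals of a group. Each group lay on 1 slide, so that spread holds no difference between slides.

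Replicate numbers were checked for pairing: deviations of arrays with the same number had correlations of -0.19 to 0.0951 (0 of 12 over 0.1). No pairing by number was seen. In every group the number is also the array's column on its slide. The background-corrected alternative (normexp, offset 50) used median signals, as mean signals were not in the files used here. Alternatives also changed the scaling, filter, probe choice, fit and animals used. Steps were tested on simulated data.

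The members, lists and tests were chosen with earlier results of these data known. All members were named. From each pathway list every called gene was named, or up to 6 with the smallest adjusted p where fewer passed, of which those called are given; from marker lists up to 2 per comparison. The rank of likeness used features detected on all arrays.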

Additional observations from a re-analysis of the deposited data

Results flagged for a closer look

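Old restricted replicate 3 stood apart from the other rats of its group in Slc7a11, at a level of -3.33 against -3.76 to -3.69. Its gap to the nearest rat was 0.842 of the group's range, past Dixon's 95% value. Of 33 groups of 4 looked at over the 11 member probes, 1 stood out in this way, and chance gives about 1 in 20. The second probe of Slc7a11, which entered no comparison, was well above background in old freely fed replicate 2 alone, at a level of -7.59. That rat also had the highest level of its group with the brighter Slc7a11 probe, at -3.56.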

How the results depend on the processing

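The number of members called with age was 1, and 0 without the brightness trend and with only the groups compared. Leaving out 1 rat gave 0 to 1 for age, 0 for restriction and 0 to 3 for restricted against young rats, where it was 0 without young replicate 1 or old restricted replicate 1. The count for restriction was 0 under every alternative run, and that for restricted against young rats was 2 or 3 under the alternatives that kept all rats.

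No value that changed sign was called. Keap1 with age was 0.0174 with quantile scaling, 0.0167 with normexp, 0.00188 with median centring and 0.0367 with normexp and quantile scaling, and -0.0427 to 0.0215 without 1 rat. Srxn1 with restriction was -0.0210 with normexp, -0.0272 with normexp and quantile scaling and -0.0263 to 0.0416 without 1 rat. Txnrd1 in restricted against young rats was -0.00657 with normexp and -0.0296 to 0.0910 without 1 rat, and with age its second probe gave 0.00788, against -0.14 for the brighter one. Without 1 rat Gclc with restriction ranged from -0.0524 to 0.118 and Nfe2l2 with restriction from -0.0667 to 0.00541.

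The fit with the replicate number as a block was also a fit by array column. It gave 1, 0 and 2 members called for age, restriction and restricted against young rats. Slc7a11 was lost (limma, adjusted p = 0.0553), and Nfe2l2 (0.0451 and 0.0321) and Nqo1 (0.0403) kept their calls. Among the pathway genes it ended the calls of Gpx2 and Abcb6 with age, of Mafg, Tkt and Gsta3 with restriction, and of Abcb6, Gsta3, Mafg and Nfe2l1 in restricted against young rats. Over all features it called 498 with age, against 760, and 498 with restriction, against 744. The fit of only the groups compared called 94 features with age and 478 with restriction, the fit without the filter 3568 and 3259 with age and in restricted against young rats, the fit without the trend 440 with age, and normexp with quantile scaling 411 with age. Leaving out 1 rat gave 121 to 927 features with age, 268 to 848 with restriction and 737 to 2089 for restricted against young rats. Higher and lower calls, 332 and 428 with age as reported, were 364 and 152 with quantile scaling, 356 and 306 with median centring and 287 and 124 with normexp and quantile scaling. For restriction they were 331 and 413 as reported and 580 and 325 with normexp, and for restricted against young rats 651 and 1223 as reported, 827 and 880 with quantile scaling and 683 and 819 with normexp and quantile scaling. Calls among the other target genes ranged from 1 to 7 with age, 2 to 4 with restriction and 6 to 11 in restricted against young rats (1 to 5, 0 to 5 and 3 to 11 without 1 rat). Those among partners ranged from 0 to 1, 0 to 1 and 0 to 3. A slide or scan block could not be fitted. The probe of Gclm entered only without the filter, with log2 changes of -0.08, 0.48 and 0.40, none called. Its highest array, old restricted replicate 2, was itself not well above background. The causes were not tested.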
